A study of Mus musculus with 82 samples.

Results

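Far regions are accessible stretches of the mouse genome that lie outside every protein-coding gene, with a centre more than 100 kb from either end of any such gene. They were found by merging the 4 deposited ATAC-seq peak lists on chromosomes 1 to 19, X and Y, joining peaks that overlapped or touched, and measuring distance to the 21887 protein-coding genes of the RefSeq table for GRCm38. Of 55272 merged regions, 4568 were far regions, or 8.26%. The cells were mouse embryonic fibroblasts of the OG2 line (OG2-MEFs, which carry a green fluorescent reporter of Oct4), infected with retroviruses that deliver OSKM, a set made of c-Myc, Klf4, Sox2 and Oct4. Every group received OSKM, and the groups differed in a second retroviral gene and in the day: Flag at day 3, RNase H1(D209N) at day 3, Flag at day 7 and RNase H1(D209N) at day 7, with 2 replicates in each. RNase H1 cuts the RNA strand of RNA:DNA hybrids, D209N changes its catalytic site, and Flag is read here as the control named in the series design. The RNase H1(D209N) arm is called D209N below. Each group has 1 deposited list of intervals with no score or read count, so there is no spread between replicates, no test between groups was possible, and the 95% Wilson intervals cover counting error only.

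Accessible regions far from genes are mostly distal regulatory elements, of which enhancers are the best known: they bind transcription factors and act on promoters through folding of the chromatin fibre. Long stretches without coding genes, called gene deserts, often flank developmental regulators and cell adhesion genes and can carry many enhancers of 1 gene, and others carry few known elements. Fibroblast enhancers lose accessibility early in reprogramming and enhancers of pluripotent cells gain it later, while promoters of broadly used genes stay open throughout. Some far regions are the promoters of long noncoding RNAs (lncRNAs) or of microRNA hosts.

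The sequence at a far region can be shown where it overlaps a RefSeq promoter window, the 300 bases from 250 before to 50 after an annotated start. This held for 112 far regions, which covered 134 windows of 117 genes, all of them lncRNAs in the RefSeq table. The 6 windows below were chosen after their values were seen, to show each kind of change between days. They are given on the gene's strand from 5′ to 3′ in GRCm38.p6 letters. Capitals mark any match, on either strand, to the AP-1 motif TGANTCA, the TEAD motif GGAATG, the POU octamer ATGCAAAT, the SP/KLF motif GGGCGG or the RUNX motif TGTGGT. Morrbid (lncRNA beside the pro-apoptotic gene Bcl2l11, chr2:128429302-128429601, minus strand) overlapped a merged region with peaks in all 4 lists. Mir99ahg (chr16:77329078-77329377, plus strand) did too. Its RefSeq entry ends at chr16:77558428, before the miR-99a and let-7c hairpins. Presence is that of the whole merged region, so the peaks of each list need not reach the window. In D209N day 3 the Morrbid region had 237 bp under peaks and the Mir99ahg region 137 bp. Mir100hg (host of the miR-100, let-7a and miR-125b hairpins, chr9:41474643-41474942, plus strand) was under a region missing from D209N day 3. The window of 4930452A19Rik (chr17:9775817-9776116, minus strand) was listed on day 7 only, in both arms. The window of Gm33125 (chr9:52423320-52423619, plus strand) was listed on day 3 only, in both arms. The window of Gm40624 (chr10:38354534-38354833, plus strand) was overlapped by a region of D209N day 7 alone. That region ended at chr10:38354702, before the annotated start, and covered the TEAD match but not the RUNX match.
Morrbid: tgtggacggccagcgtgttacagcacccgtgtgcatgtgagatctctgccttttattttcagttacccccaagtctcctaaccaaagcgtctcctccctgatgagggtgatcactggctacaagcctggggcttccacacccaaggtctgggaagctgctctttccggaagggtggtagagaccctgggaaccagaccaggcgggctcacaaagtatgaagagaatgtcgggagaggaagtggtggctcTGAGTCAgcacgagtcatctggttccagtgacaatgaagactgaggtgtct
Mir99ahg: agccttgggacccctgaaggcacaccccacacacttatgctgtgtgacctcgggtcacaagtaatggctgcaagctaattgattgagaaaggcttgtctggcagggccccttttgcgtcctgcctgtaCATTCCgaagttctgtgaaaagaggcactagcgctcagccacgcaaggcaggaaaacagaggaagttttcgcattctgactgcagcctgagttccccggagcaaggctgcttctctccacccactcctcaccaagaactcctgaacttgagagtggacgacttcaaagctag
Mir100hg: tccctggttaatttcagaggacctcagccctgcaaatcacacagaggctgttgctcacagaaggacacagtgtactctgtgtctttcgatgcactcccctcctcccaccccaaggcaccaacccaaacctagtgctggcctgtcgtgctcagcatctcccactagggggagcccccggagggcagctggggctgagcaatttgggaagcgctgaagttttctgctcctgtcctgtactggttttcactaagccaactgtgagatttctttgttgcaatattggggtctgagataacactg
4930452A19Rik: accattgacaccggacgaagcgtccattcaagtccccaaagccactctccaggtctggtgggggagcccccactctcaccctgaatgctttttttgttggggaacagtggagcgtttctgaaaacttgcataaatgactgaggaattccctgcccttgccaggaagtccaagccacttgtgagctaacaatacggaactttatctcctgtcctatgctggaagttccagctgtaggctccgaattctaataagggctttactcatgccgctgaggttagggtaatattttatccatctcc
Gm33125: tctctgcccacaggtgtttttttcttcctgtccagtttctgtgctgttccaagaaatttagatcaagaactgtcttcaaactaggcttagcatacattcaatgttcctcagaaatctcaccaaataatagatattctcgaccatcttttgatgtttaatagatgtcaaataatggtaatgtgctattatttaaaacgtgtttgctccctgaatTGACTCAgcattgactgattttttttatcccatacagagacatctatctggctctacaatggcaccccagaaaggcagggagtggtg
Gm40624: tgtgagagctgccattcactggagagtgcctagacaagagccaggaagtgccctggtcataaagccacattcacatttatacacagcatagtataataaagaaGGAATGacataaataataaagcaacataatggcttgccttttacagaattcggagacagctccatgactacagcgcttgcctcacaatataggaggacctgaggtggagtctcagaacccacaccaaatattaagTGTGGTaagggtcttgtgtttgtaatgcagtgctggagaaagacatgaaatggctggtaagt

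In GC content, CpG number and the SP/KLF motif, windows under far regions lay between noncoding promoters in general and those with a listed peak nearer to genes. Their shares with the AP-1 and TEAD motifs were above both. For RUNX and the octamer they were little above noncoding promoters in general. No interval or test was made for any motif. Their median GC content was 50.8%, with 5 CpG dinucleotides per window. The 11588 noncoding windows of the table had 48.3% and 4, and the 2026 noncoding windows under listed regions of which none was far had 60.7% and 19. Over all 32851 windows the medians were 52.7% and 7. A match to the AP-1 motif stood in 12.7% of the 134 windows, against 9.31% of noncoding windows, 8.64% of those under regions that were not far and 7.81% of all windows. The TEAD motif stood in 23.9%, against 16.6%, 13.8% and 14.7%. The RUNX motif stood in 21.6%, against 20%, 14.1% and 16.8%, and the octamer in 2.24%, against 1.87%, 1.48% and 1.74%. The SP/KLF motif, which is common in CpG-rich promoters, stood in 23.1%, above the 16.3% of noncoding windows and below the 55% of those under regions that were not far and the 35.7% of all windows. A match describes letters in a window and not a bound factor, and windows of 1 gene can overlap.

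MicroRNAs (miRNAs) give a second set of far sequences. Of 1005 RefSeq hairpins, 104 lay more than 100 kb from coding genes, 26 of those lay within 10 kb of a far region, and 4 were overlapped by one. The mature sequences below were picked from these 26 after the values were seen, mainly for a region on or beside the hairpin that differed between lists. Capitals mark the seed, bases 2 to 8, which pairs with target messenger RNAs. The hairpin of Mir137, a miRNA best known from neural differentiation, lies at chr3:118433857-118433929 and was overlapped by a 362 bp region listed in D209N day 7 alone. Mir99a and Mirlet7c-1, at chr16:77598936-77599000 and chr16:77599657-77599750, lay 4.53 and 5.25 kb from a region listed on day 7 only, in both arms. Mir125b-1, at chr9:41581926-41582002, lay 0.68 kb from a region missing from Flag day 7 alone, with 3 far regions within 10 kb. Mir29a and Mir29b-1 share a seed and lay 4.1 and 3.75 kb from a region of Flag day 7 alone. Mir344 and Mir344-2 give the same mature miR-344-3p from separate hairpins on chromosome 7. The region over Mir344 was listed on day 7 only, in both arms, and that over Mir344-2 in all 4 lists. Reads from such near-identical copies may have been placed on either one.
mmu-miR-137-3p: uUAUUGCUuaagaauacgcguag
mmu-let-7c-5p: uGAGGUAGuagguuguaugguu
mmu-miR-99a-5p: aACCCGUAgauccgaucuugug
mmu-miR-125b-5p: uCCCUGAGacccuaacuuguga
mmu-miR-29a-3p: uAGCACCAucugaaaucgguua
mmu-miR-29b-3p: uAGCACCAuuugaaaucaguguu
mmu-miR-344-3p: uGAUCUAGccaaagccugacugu

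At day 3, 3109 far regions were listed with Flag and 2348 with D209N, and at day 7 the numbers were 2468 and 2516. Below, 4 values in a row follow this order. Flag day 3 stood above the other 3 lists, which lay close together. Over all merged regions the numbers were 35879, 28701, 42048 and 40168, so the day 7 lists were the longer ones for the genome as a whole. In Flag, 0.794 far regions were listed at day 7 for each one at day 3, against 1.17 over all regions. In D209N the ratio was 1.07, against 1.4 over all regions. Regions inside genes over 100 kb from an end gave 0.893 in Flag and 1.18 in D209N. Those outside genes at 1 to 100 kb gave 1.31 and 1.64. Far peaks made up 8.58% (8.3 to 8.88) of the Flag day 3 list and 5.87% (5.65 to 6.1) of the Flag day 7 list. They made up 8.09% (7.78 to 8.41) and 6.27% (6.03 to 6.51) of the D209N lists. Fewer far regions at day 7 than at day 3 were seen on 20 of 20 chromosomes (1 to 19 and X) in Flag, and on 6 of 20 in D209N. Lists come from bulk cells, so fewer cells with an open site and less access per cell cannot be told apart, and an unlisted region may be open below the calling threshold.

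Far regions left the list between days far more often than regions near genes, in both arms. Of the far regions of Flag day 3, 49.9% (48.1 to 51.6) were absent at Flag day 7. The share was 22.8% for all regions, 28.4% for regions outside genes at 1 to 100 kb, and 2.76% for regions within 1 kb of a gene end. Of the far regions of D209N day 3, 39.1% (37.1 to 41.1) were absent at D209N day 7, against 16.1%, 20.7% and 1.49%. Regions deep inside long genes, over 100 kb from either end, came closest to far regions, with 44.2% (41.9 to 46.5) in Flag and 32.8% (30.3 to 35.3) in D209N. The share was higher for far regions than for regions outside genes at 1 to 100 kb on 20 of 20 chromosomes in each arm. As a share of all 4568 far regions, 34% were lost in Flag and 20.1% in D209N, where 14.8% and 8.37% of all regions were. Gained regions, listed at day 7 and not at day 3, were 19.9% in Flag and 23.8% in D209N, against 25.9% and 29.1% of all regions.

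The loss rose with distance inside the set. Among far regions 100 to 200 kb from a gene, 42.1% of those of Flag day 3 and 34.1% of those of D209N day 3 were absent at day 7. At 200 to 500 kb the shares were 49.8% and 38.4%, and at 500 to 1000 kb they were 68.5% and 54.5%. Beyond 1000 kb they were 74.6% (66.9 to 81.1) and 61.5% (51.3 to 70.9). In counts, the 177 regions beyond 1000 kb were listed 142, 91, 51 and 57 times. The 2116 regions at 100 to 200 kb were listed 1315, 1025, 1289 and 1275 times. The nearest band was thus almost level between days in Flag, and the farthest fell to 0.359 of its day 3 number.

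**Figure D1:**
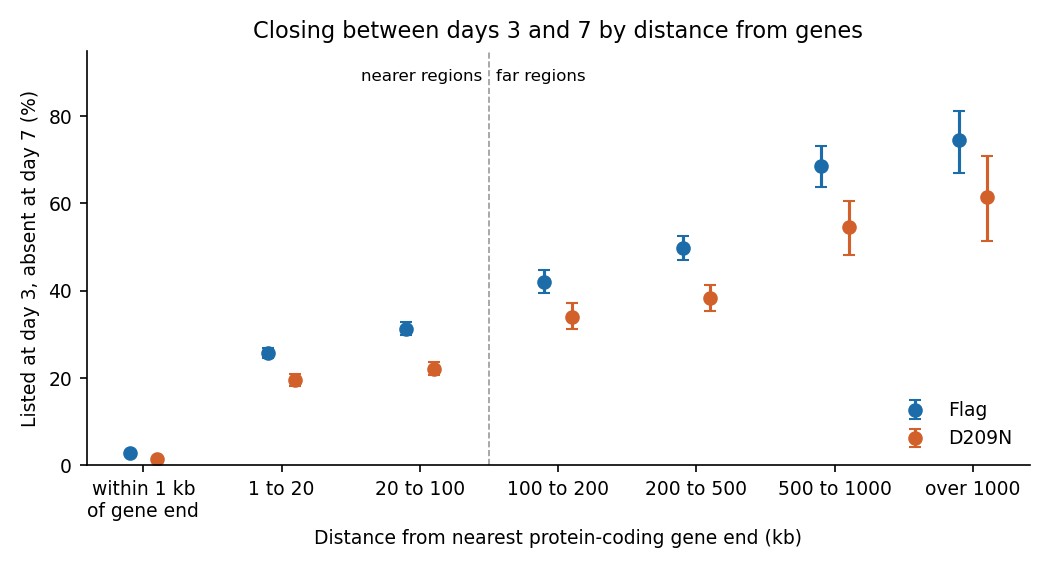
Share of regions listed at day 3 that were absent at day 7 of the same arm (y axis, percent) by distance from the nearest protein-coding gene end (x axis, kb), for Flag (blue) and D209N (orange); bars are 95% Wilson intervals. Regions left of the dashed line lie outside genes at 1 to 100 kb or within 1 kb of a gene end; the share rose from 2.76% at gene ends to 74.6% beyond 1000 kb in Flag.

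The difference between days from regions outside genes at 1 to 100 kb was seen in each quartile of peak width. Wide peaks are usually strong ones. Far peaks had a median of 399 bp against 481 bp for all other peaks in Flag day 3, but those others include gene ends. Among merged regions, the median width was 839 bp within 1 kb of a gene end. It was 417 bp for far regions, 418 bp for regions outside genes at 1 to 100 kb and 425 bp for regions inside genes over 100 kb from an end. Far regions were thus about as wide as the other distal regions compared here. Among far regions of Flag day 3, 33.5%, 44.5%, 65% and 79.5% of those in the narrowest to the widest quartile were listed at Flag day 7. For regions outside genes at 1 to 100 kb the shares were 56%, 70.8%, 83.2% and 92.4%. In D209N they were 44%, 58.8%, 75.4% and 86.4% for far regions and 65.6%, 78.9%, 89.3% and 96.4% for the nearer ones. Regions inside genes over 100 kb from an end came closer to far regions. They had 36.8%, 52.5%, 68.7% and 87.5% in Flag and 46.3%, 71.9%, 77.9% and 92.3% in D209N. In each arm their intervals overlapped those of far regions except in the second quartile. Between arms at day 3 the shares of Flag regions found in D209N were alike for far regions and regions outside genes at 1 to 100 kb. Far regions of Flag day 3 were also in D209N day 3 for 33.8%, 65.3%, 88.3% and 96.7% by quartile, and regions at 1 to 100 kb for 33%, 66.4%, 89.2% and 97%. At day 7 they were not alike in the narrower quartiles. Far regions of D209N day 7 were also in Flag day 7 for 52.9% (49.5 to 56.3), 80.6%, 96.5% and 97.7%, against 61.3% (59.7 to 62.9), 86.3%, 96.6% and 99.3%. Regions inside genes over 100 kb from an end were like far regions here, with 53.8%, 80.7%, 95.6% and 98.8%. Far regions of Flag day 7 were also in D209N day 7 for 53.9% (50.5 to 57.2), 86.8%, 94.9% and 99%, against 50.1% (48.5 to 51.7), 82%, 96.6% and 99.8%. The intervals of the narrowest quartile overlap in this direction. Regions inside genes over 100 kb from an end had 49.9%, 82.9%, 96.6% and 100%.

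**Figure D2:**
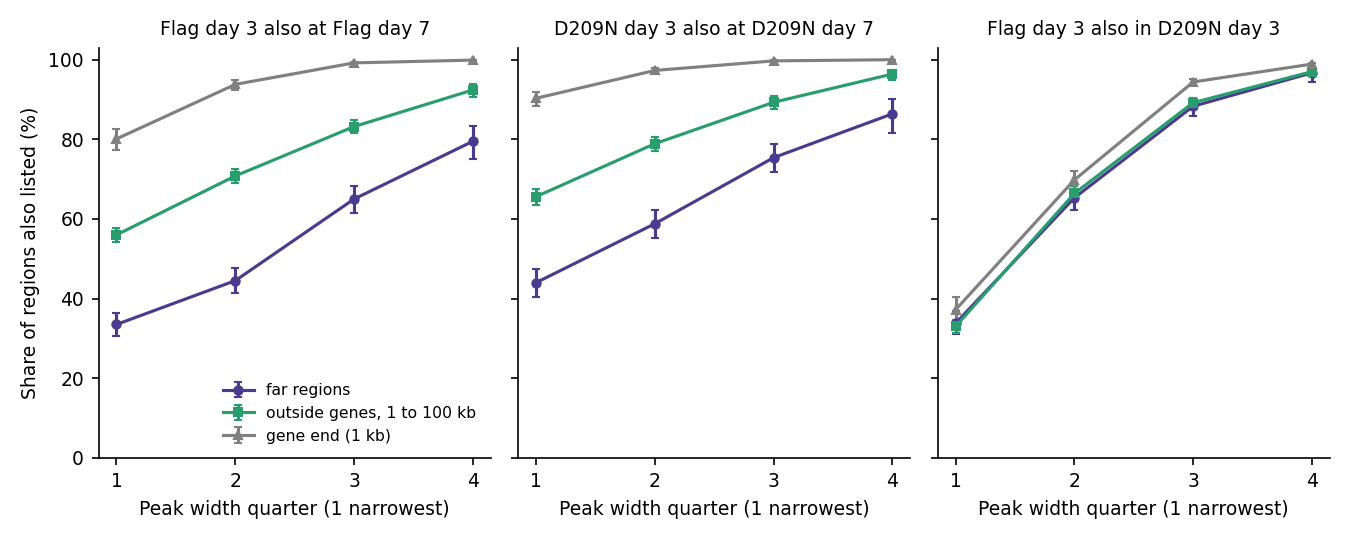
Share of the regions of a first list that were also in a second list (y axis, percent) by quartile of peak width in the first list (x axis), with 95% Wilson intervals. Far regions (purple) lie below regions outside genes at 1 to 100 kb (green) in every quartile between days, while the curves nearly coincide between Flag day 3 and D209N day 3.

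The comparison of arms asks which far regions were listed with Flag and not with D209N, or the reverse. At day 3, 1105 far regions were in Flag and not D209N and 344 in D209N and not Flag, which is 24.2% and 7.53% of far regions, against a background of 18.1% and 5.11% of all regions. The D209N to Flag ratio was 0.755 for far regions, 0.752 for regions outside genes at 1 to 100 kb and 0.8 for all regions, so far regions followed the other distal regions. D209N had fewer far regions than Flag at day 3 on 20 of 20 chromosomes. At day 7, 534 far regions were in Flag and not D209N and 582 in D209N and not Flag, or 11.7% and 12.7%, against a background of 13.5% and 10.1%. The ratio was 1.02 for far regions and 0.955 for all regions, and D209N had more on 13 of 20 chromosomes and fewer on 7. The lists differ in length, and the day 3 ratio depended on it. When each list was limited to its 29189 widest peaks, the length of the shortest, the D209N to Flag ratio was 1.02 at day 3 and 1.12 at day 7. On that footing far regions fell between days in both arms, to 0.613 in Flag and 0.676 in D209N, and 57% and 52.3% of day 3 far regions were absent at day 7.

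Presence over the 4 lists gives 15 patterns, and far regions were spread over them differently from all regions. The largest was presence in all 4 lists, with 1163 far regions or 25.5%, against 39.4% of all regions. Gene ends, at 73.6%, raise that background. The share was 28.3% for regions outside genes at 1 to 100 kb. It was 27% for regions inside genes over 100 kb from an end, so far regions lay near other distal regions. Flag day 3 alone held 723 (15.8%, against 7.26%). Day 3 only, in both arms, held 602 (13.2%, against 4.7%), and day 7 only, in both arms, held 429 (9.39%, against 12.9%). For these 2 patterns, regions inside genes over 100 kb from an end had 10.4% and 9.48%. Regions outside genes at 1 to 100 kb had 4.56% and 16.5%. Flag day 7 alone held 350 (7.66%, against 10.3%), D209N day 7 alone 336 (7.36%, against 6.84%) and D209N day 3 alone 193 (4.23%, against 1.92%). Listing on both days of 1 arm and in neither list of the other held 61 far regions in Flag (1.34%, against 1.43%) and 20 in D209N (0.438%, against 0.384%), close to the share of all regions.

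**Figure D3:**
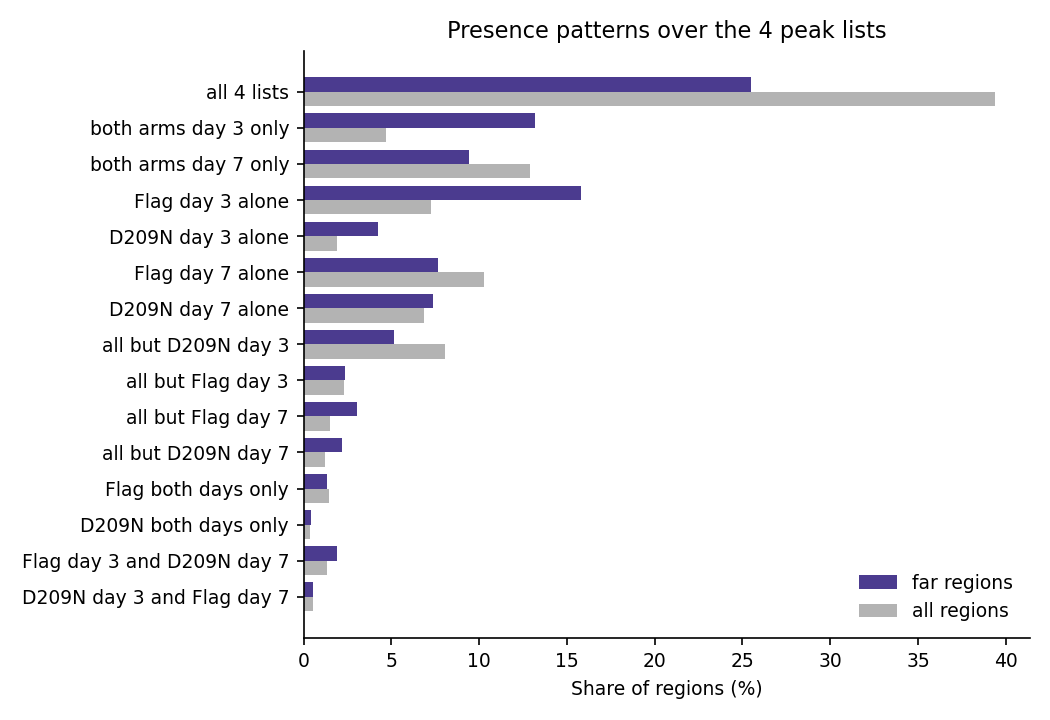
Share of far regions (purple) and of all merged regions (grey) with each presence pattern over the 4 peak lists (x axis, percent). Day 3 patterns take a larger share of far regions (15.8% for Flag day 3 alone) and presence in all 4 lists a smaller one (25.5% against 39.4%). All merged regions include gene ends, of which 73.6% were in all 4 lists.

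The peak names carry serial numbers that ascend along each list with gaps, and every name says rep1. In stretches where neighbouring listed peaks were both far and between the same coding genes, the numbers missing per neighbouring pair were 0.118 (Flag) and 0.252 (D209N) at day 3, and 0.267 (Flag) and 0.339 (D209N) at day 7. Between pairs of peaks that were not far, the values in the same order were 0.105, 0.241, 0.259 and 0.352, so far peaks were missing at about the rate of the others. Counting the missing numbers as well, the day 7 to day 3 ratio in far stretches was 0.85 in Flag and 1.18 in D209N, where the listed pairs alone gave 0.75 and 1.1. Of far regions listed in Flag day 3 and absent at day 7, 39.9% (37.5 to 42.4) lay between day 7 peaks with consecutive numbers, against 46.3% (44.3 to 48.3) of such regions outside genes at 1 to 100 kb. In D209N the shares were 34.3% (31.3 to 37.4) and 38.3% (35.7 to 40.9). For the others a number is missing somewhere between the flanking peaks. The share beside a missing number was thus higher for far regions than for nearer ones in both arms, with intervals that overlap in D209N, and the part of the missing peaks in the loss between days was not tested.

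Gene deserts, here the stretches between neighbouring coding genes less 100 kb at each side, numbered 1689 and covered 785.1 Mb. Far regions stood in 993 of them, at 5.77 per Mb over all. The 108 deserts with 10 or more far regions held 32.5% of the set. Density fell with desert size, from 9.46 far regions per Mb in deserts up to 0.5 Mb to 3.21 in those over 2 Mb. The share of Flag day 3 regions absent at day 7 rose over the same size classes, from 39.3% to 48.6%, 59.1% and 66.5%. In Flag, 465 deserts had fewer far regions at day 7 than at day 3 and 262 had more, while in D209N 300 had fewer and 355 more. Of all far regions, 29.8% had another within 10 kb, and the median gap to the nearest other one was 26.2 kb.

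Single deserts moved in opposite directions. The desert between Tenm2, which encodes a teneurin adhesion protein of neurons, and Mat2b spans 3.24 Mb of chromosome 11 and held 27 far regions, of which 23, 17, 8 and 7 were listed. In both arms, 10 of them were on day 3 only. Between Slc10a2, a bile acid transporter, and Efnb2, an ephrin ligand of vessels and neurons, 33 far regions over 3.31 Mb of chromosome 8 were listed 24, 19, 12 and 12 times. Between Gm15501 and Tenm4 on chromosome 7, 22 far regions were listed 17, 13, 8 and 8 times. Between Zeb2, a repressor of epithelial genes, and Acvr2a, an activin receptor, the 25 far regions were listed 22, 11, 12 and 13 times, so Flag day 3 stood apart. Between Epha7 and Map3k7, 24 were listed 19, 15, 13 and 17 times.

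Other deserts filled up by day 7. Between Gadd45g, a stress-induced growth arrest gene, and Diras2, 25 far regions were packed into 0.456 Mb of chromosome 13 and were listed 12, 9, 21 and 15 times. Between Bcl2l11 and Spdye4c, the Morrbid desert, 15 far regions in 0.229 Mb of chromosome 2 were listed 8, 5, 12 and 12 times, and 5 of them were on day 7 only in both arms. Between Ubash3b and Gm40514, the Mir100hg desert, 21 far regions in 0.544 Mb of chromosome 9 were listed 11, 10, 15 and 18 times, again with 5 on day 7 only in both arms. Inside the Mir100hg gene itself, 12 overlapping far regions were listed 5, 6, 9 and 10 times. In Mir99ahg, 5 were listed 4, 4, 5 and 4 times.

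**Figure D4:**
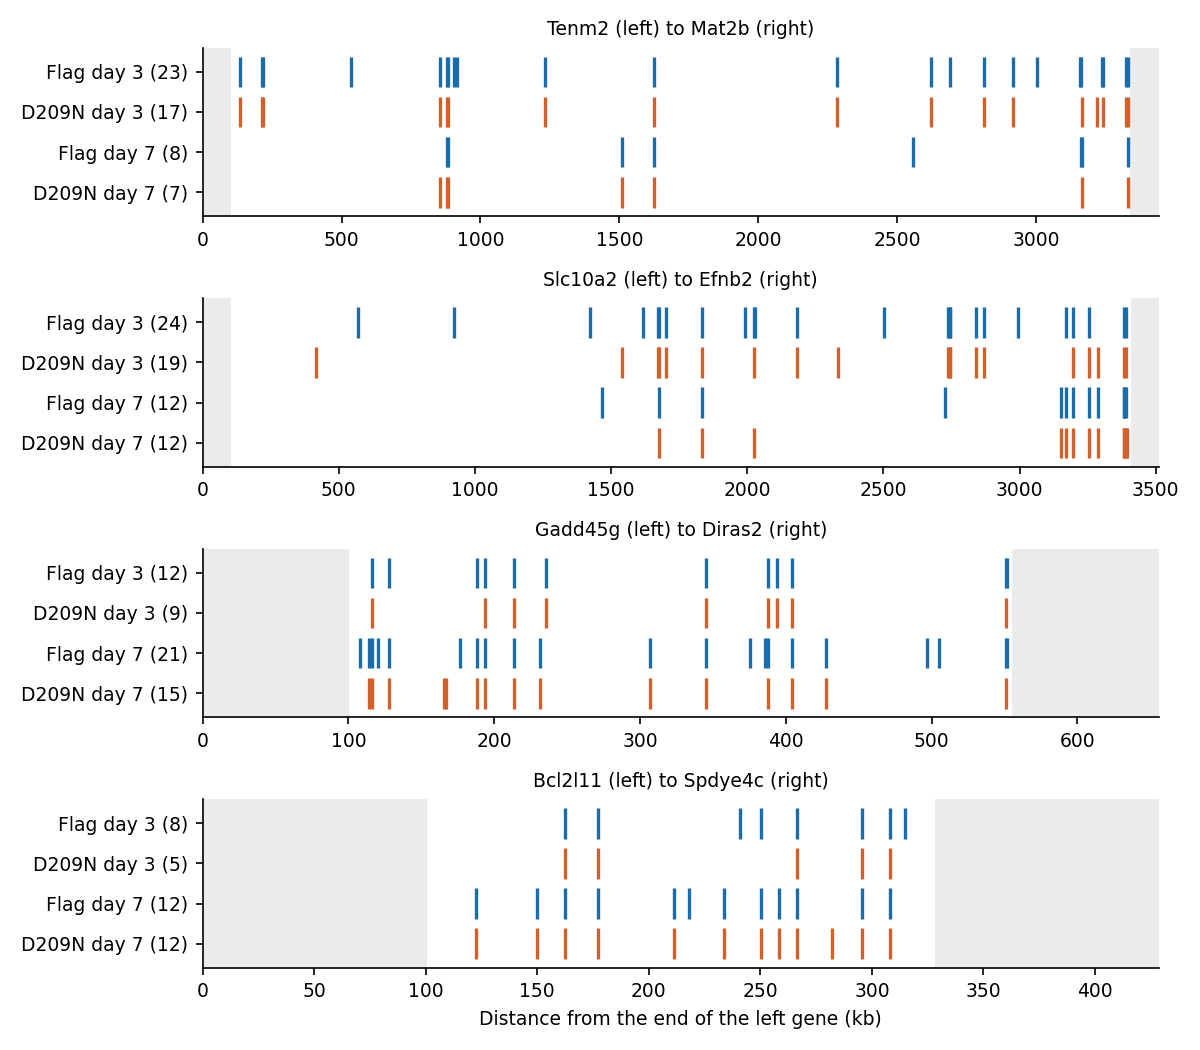
Far regions in 4 gene deserts by distance from the end of the left gene (x axis, kb), 1 row per list with its number of regions, Flag in blue and D209N in orange; grey marks the 100 kb beside each gene, where no region counts as far. The 2 upper deserts thin out from day 3 to day 7 (23 to 8 and 24 to 12 in Flag), and the 2 lower ones fill up (12 to 21 and 8 to 12 in Flag).

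Around the delivered factors, 51 far regions had Sox2, Klf4 or Myc as a flanking coding gene, and none had Pou5f1, which encodes Oct4. They were listed 30, 23, 28 and 27 times. Sox2 had 14, listed 5, 3, 6 and 6 times, with none in all 4 lists and 3 on day 7 only in both arms. Within 500 kb of Sox2, the region at chr3:34310607-34311256, 339 kb away, had 650 bp in Flag day 3 and nothing in the other lists, and that at chr3:34795647-34796185, 143 kb away, had 539 bp in Flag day 7 alone. Klf4 had 11, listed 7, 4, 7 and 7 times. The closest, chr4:55650914-55652044, was 119 kb from Klf4 and had 837, 790, 1112 and 982 bp under peaks in the 4 lists. Myc had 26, listed 18, 16, 15 and 14 times. In the lncRNA Pvt1 beside Myc, chr15:62137034-62137639 was 147 kb from Myc and had 512, 300, 541 and 598 bp. The retroviral copies of these genes sit elsewhere in the genome, and nothing ties a far region to the gene beside it.

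Far regions flanked by pluripotency genes, 67 in all, were listed 47, 39, 45 and 44 times. Of the Flag day 3 ones 31.9% (20.4 to 46.2) were absent at day 7, against 49.9% of all far regions. Of the D209N day 3 ones 25.6% (14.6 to 41.1) were, an interval that holds the 39.1% of all far regions. For the delivered factors the shares were 56.7% (39.2 to 72.6) and 34.8% (18.8 to 55.1). No difference between lists was tested. Sall1, a zinc finger factor of pluripotent and kidney progenitor cells, had 11 (7, 4, 7 and 8). Its region chr8:89271447-89272748 had 1029, 0, 1155 and 878 bp and was the one with the most bases among those missing from D209N day 3 alone. Jarid2, a partner of Polycomb repressive complex 2, had 16 (9, 7, 13 and 11). Of 37 far regions flanked by AP-1, RUNX, TEAD, CEBP or NFI factor genes, 21, 19, 28 and 25 were listed, and 19% (7.67 to 40) of those of Flag day 3 and 31.6% (15.4 to 54) of those of D209N day 3 were absent at day 7. Jun, an AP-1 subunit, had 9 (5, 4, 7 and 6), and Nfia had 9 (7, 7, 4 and 3). Homeobox, paired and LIM factor genes flanked 233 far regions and forkhead, T-box, GATA and nuclear receptor genes 298, with 47.6% and 46.5% absent in Flag, close to the whole set.

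Cadherins, protocadherins and neural adhesion genes flanked more far regions than any other gene list here, and these left the lists between days more often than the set as a whole. The list also holds teneurins, contactins and ephrins, and members outside neurons such as Cdh5 of endothelium and Cdh11 of mesenchyme. Its genes flanked 647 far regions, 14.2% of the set, against 1.91% of regions outside genes at 1 to 100 kb. The number of far regions a gene can flank depends on the length of the deserts beside it. That length was not taken into account, so the 2 shares do not compare densities. They were listed 501, 363, 224 and 253 times, which is 0.447 between days in Flag and 0.697 in D209N. Of those of Flag day 3, 67.9% (63.7 to 71.8) were absent at day 7, and of those of D209N day 3, 55.1% (50 to 60.1). The 4 deserts of Tenm2, Tenm4, Epha7 and Efnb2 above belong to this list. Of its 70 flanking genes, 60 had fewer far regions at day 7 than at day 3 in Flag, 3 had more and 7 the same, and in D209N 48 had fewer, 13 more and 9 the same. A region between 2 genes of the list counts for both, so these genes are not separate units. Ncam2, a neural adhesion molecule, had 13, listed 9, 9, 0 and 2 times. Slitrk1 had 13 (13, 6, 2 and 1) and Slitrk5 had 17 (14, 12, 2 and 4), both synaptic adhesion proteins. Cdh10, a cadherin of the brain, had 15 (12, 8, 1 and 4). Cdh8 had 28 (21, 18, 10 and 11), and Cntn3 had 17 (13, 10, 10 and 12). Ncam1 went the other way, with 9 (3, 1, 7 and 8), of which 5 were on day 7 only in both arms. The list was thus not uniform. Of the other lists only muscle genes had a higher share absent in Flag, 70.6% of 17 day 3 regions.

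The share absent at day 7 also rose with distance, so the same shares were set side by side within bands of distance. At 100 to 200 kb, 56% (47 to 64.7) of the far regions of Flag day 3 with such a flank were absent at day 7, against 40.7% (38 to 43.5) of the others. At 200 to 500 kb the shares were 64.1% and 47.6%, and over 500 kb they were 77.2% (71.2 to 82.3) and 65.2% (59.7 to 70.4). In D209N they were 47.9% and 32.8%, 51.5% and 36.4%, and 63.3% and 51.5%. The flanked regions were above the others in each band and arm. For developmental factor genes, the same bands gave 40.9%, 47% and 66.7% in Flag, against 42.2%, 50.2% and 70.7% of the others. The lists were chosen with results of these data known, and no test of the difference was made.

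**Figure D5:**
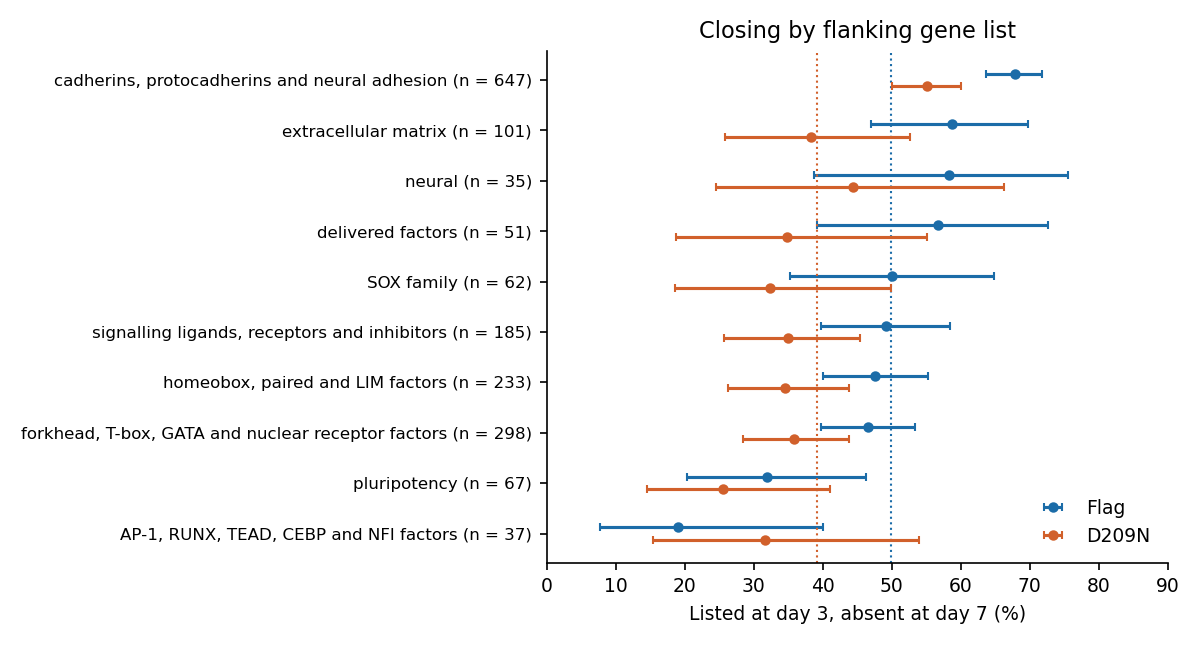
Share of far regions listed at day 3 that were absent at day 7 (x axis, percent), by list of flanking coding genes (y axis, n far regions in brackets), Flag in blue and D209N in orange with 95% Wilson intervals; dotted lines give all far regions (49.9% and 39.1%). Cadherin and neural adhesion genes lie to the right at 67.9% and 55.1%, and AP-1, RUNX, TEAD, CEBP and NFI genes to the left in Flag at 19%.

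Far regions at the ends of noncoding genes had a lower share absent at day 7 than the others, though not in every band of distance, and the difference was not tested. The 307 far regions within 1 kb of a noncoding gene end were listed 180, 128, 206 and 215 times, and 30% (23.8 to 37.1) of those of Flag day 3 were absent at day 7, against 51.1% (49.3 to 52.9) of the other 4261. In D209N the shares were 21.9% and 40.1%. By distance the Flag shares were 22.2% and 43.5% at 100 to 200 kb, and 30.7% and 51% at 200 to 500 kb. Over 500 kb, where 15 such regions were listed in Flag day 3, they were 73.3% (48 to 89.1) and 70.1% (66 to 74). Far regions inside lncRNA genes, 871 in all, were listed 550, 419, 542 and 542 times, and 42.5% of those of Flag day 3 were absent at day 7. The 3631 outside every annotated gene were listed 2524, 1896, 1887 and 1940 times, and 51.5% were absent. Lncpint, a lncRNA induced by p53, held 12 (7, 4, 8 and 9), and Gm32647 on chromosome 7 held 9 (8, 6, 1 and 1). With no gene of any type within 100 kb, only 828 regions remained, and 64.8% of those of Flag day 3 were absent at day 7.

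The members with the most bases under peaks show each pattern. Leaving aside multi-copy sequence, the one with the most bases in all 4 lists was chr17:13550694-13553097, in the lncRNA 2700054A10Rik, with 1975, 1856, 2386 and 2131 bp. At the Morrbid start, chr2:128427969-128429899 had 632, 237, 1873 and 1406 bp, so the listed stretch was several times longer at day 7. On day 3 only, in both arms, chr3:156452761-156453780 had 956 and 946 bp, 109 kb from Negr1, a neural adhesion gene. In the same pattern, chr4:27945958-27947253 had 1296 and 602 bp, 866 kb from Epha7. On day 7 only, in both arms, chr13:44228467-44229337 had 654 and 871 bp in the desert of Cd83 and Jarid2. Also there, chr7:115310198-115311012 had 815 and 709 bp, 160 kb from Sox6, a SOX factor.

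Regions of 1 list alone were narrower than those of several lists, with medians between 229 and 285 bp, but not all small. A region joined from several lists spans all its peaks, so part of this difference follows from the joining. Flag day 3 alone held chr11:40394110-40394926, with 817 bp in the Tenm2 to Mat2b desert. D209N day 7 alone held chr10:38353669-38354702, with 1034 bp that reached the upstream part of the Gm40624 window above but not the annotated start. D209N day 3 alone held chr14:52914860-52915683, with 824 bp inside the Tcra locus. Flag day 7 alone held chr6:31197792-31198524, with 733 bp inside Lncpint. On both days of D209N and in neither Flag list, chr4:71131166-71132032 had 348 and 867 bp between Megf9 and Gm11232. On both days of Flag and in neither D209N list, chr10:96334242-96335095 had 854 and 477 bp, 282 kb from Btg1, an antiproliferative gene.

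The farthest far region lay at chr14:82235675-82236221, 2210 kb from Olfm4 and from Pcdh17, and was on day 3 only, with 517 and 490 bp. The next 4 stood in the desert between Celf4 and Pik3c3. Those 2200 and 2190 kb from the nearer gene were in all 4 lists, that at 2170 kb was in Flag day 7 alone, and that at 1970 kb was on day 3 only in both arms. At the threshold, chr2:39326062-39326926 lay just over 100 kb from Ppp6c and was on day 3 only, and chr8:78113257-78113477 lay just outside the set, 99.9 kb from Ttc29, in Flag day 7 alone. Some far regions lie in sequence with many copies. The widest of the set, chr17:39843096-39848761, covers the ribosomal RNA copy Rn18s-rs5 with 5570, 5540, 5666 and 5575 bp. At the start of chromosome 9, 18 far regions between chr9:3000046-3038275 were listed 15, 15, 18 and 16 times. Leaving out the widest region and all 19 far regions of chromosome 9 before 3.5 Mb kept 4548. Of the kept regions, 25.2% were in all 4 lists, and 50.1% of those of Flag day 3 were absent at day 7.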

How the data were processed

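Accessible chromatin was measured by ATAC-seq in 8 of the series' 82 samples, in 4 groups of 2 replicates. The authors deposited 1 BED list of peak intervals per group, with positions and names only. Per the submitters' processing notes, the tools were Bowtie2 2.3.2 and CASAVA and the builds GRCm38.p5 and mm10. The sources used here do not state the peak caller, its threshold or the handling of the replicates. Read depth is unknown. Each list also had 3 mitochondrial intervals, which were not used.

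The lists were joined in Python 3.11.15 (numpy 2.4.6, pandas 2.3.3), and gene ends came from the RefSeq table of GRCm38.p6, whose main chromosomes are those of the files' build. The joining and distance steps were checked on simulated intervals. A region was present in a list if any of its peaks was. Wilson intervals came from scipy 1.17.1, figures from matplotlib 3.10.9. Regions named are those with the most bases under peaks in each pattern, the farthest, the deserts with the most members or changes, and those beside delivered or pluripotency genes, of which a part is printed. Members and gene lists were chosen with earlier results of these data known. Alternatives were another distance limit, all RefSeq genes, wider peaks, lists of equal length, other joining rules, and leaving out X and Y or the first 500 kb after 3 Mb. A width minimum of 100 bp and leaving out multi-copy regions were added after seeing the data. Promoter and miRNA sequences are RefSeq's; the genome sequence under other regions was not used here.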

Additional observations from a re-analysis of the deposited data

Results flagged for a closer look

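The number of far regions moved in opposite directions between days in the 2 arms. In Flag it fell, with 0.794 listed at day 7 for each at day 3, and in D209N it rose, with 1.07. This was not particular to far regions. Regions inside genes over 100 kb from an end gave 0.893 in Flag and 1.18 in D209N. Each arm has 1 list per day, so the difference between arms was not tested. With lists of equal length both fell, to 0.613 and 0.676. D209N also fell with a limit of 200 kb (0.938) and with no gene of any type within 100 kb (0.748), and among far regions at 500 to 1000 kb (0.77) and beyond 1000 kb (0.626).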

How the results depend on the processing

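No paired analysis was possible because each group has 1 deposited list, and for the same reason no replicate could be left out. The settings that left every share and arm ratio inside its interval were both joining rules, leaving out X and Y, leaving out the first 500 kb after 3 Mb, the 100 bp width minimum and leaving out multi-copy regions. Far regions were 13.3% of all regions at 50 kb, 4.44% at 200 kb, 1.5% with no gene of any type within 100 kb and 6.31% with peaks at or above the median width of 472 bp. The share gained in Flag was 23.2%, 15.6%, 10.9% and 16.4% in that order, and 12.5% with lists of equal length. The share lost in Flag was 29.2%, 40.7%, 50.2%, 38.7% and 38.7% in the same 5 settings. The share gained in D209N was 26.8%, 19.8%, 15.6%, 27% and 13.8%. The share lost in D209N was 16.6%, 23.2% and 29.8% in the first 3 and 36.2% with lists of equal length. The share in all 4 lists was 21.4% with no gene of any type, 19.4% with wider peaks and 23.7% with equal length. The D209N to Flag ratio at day 3 was 0.729 with no gene of any type, 0.706 with wider peaks and 1.02 with equal length, where the direction turned. At day 7 it was 1.05 at 200 kb, 1.11 with no gene of any type, 1.21 with wider peaks and 1.12 with equal length. The day 7 to day 3 ratio of D209N turned to 0.938 at 200 kb, 0.748 with no gene of any type and 0.676 with equal length; the distance settings keep fewer regions, and the last keeps fewer peaks of the longer lists. Far regions of day 3 were absent at day 7 more often than regions outside genes at 1 to 100 kb in both arms under each peak setting, for example 57% against 35.1% in Flag and 52.3% against 33.8% in D209N with equal length. The lists hold no read depth, and 81 far regions are under 100 bp wide, the narrowest 5 bp.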
